A study of Mus musculus with 12 samples.

Results

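Expression of 34 genes of germ cell pluripotency and early meiosis was examined in the germ cells of fetal mouse gonads. The genes were taken by symbol and hold 5 genes of primordial germ cell specification and maintenance, 10 of the pluripotency network, 2 RNA-binding proteins of germ cell licensing, 2 genes of male germ cell fate, 6 of the piRNA pathway and 9 of meiosis, out of 32285 genes counted. A cell was taken as a germ cell when it had at least 1000 genes, at most 10% mitochondrial UMIs (unique molecular identifiers, 1 per captured RNA molecule) and together at least 20 UMIs of Dppa5a, Pou5f1, Ddx4, Dazl and Dppa3. This held for 8044 of 83513 cells that passed the first 2 limits, among 103730 barcodes. The UMIs of these cells were summed for each library, and levels are given as CPM, the UMIs of a gene per 1000000 UMIs of the summed germ cells, scaled by edgeR's TMM factors.

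Gonads were dissected at E12 from XX and XY embryos of a mixed B6CBAF1/JRj background, with 2 libraries in each of 6 groups and 12 in all. The genotypes were wild-type (WT), -KTS KO, whose Wt1 alleles can make only the +KTS splice variant of the WT1 zinc finger protein, and +KTS KO, whose alleles can make only the -KTS variant. Both mutations are constitutive, so that germ cells and somatic cells carry them alike. The WT embryos had 24 to 25 tail somites, a count that rises with developmental age. The mutants had 20 to 26, with 23 and 20 in the XX +KTS KO, 26 and 22 in the XY +KTS KO, 23 and 20 to 25 in the XX -KTS KO, and 24 and 20 to 23 in the XY -KTS KO. The study's sample table lists 2 or 3 embryos for 3 of the 4 -KTS KO libraries and 1 entry for every other library. P-values measure only the spread between the 2 libraries of a group, pooled over all 6 groups in 1 fit.

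Primordial germ cells reach the gonad while they still express much of the pluripotency network, with POU5F1, NANOG and SOX2 at its centre. There the RNA-binding protein DAZL licenses them to take up a sexual fate. In an ovary, retinoic acid and BMP signals then turn on Stra8 and the genes of the meiotic chromosome axis and synaptonemal complex. In a testis, NANOS2 and DNMT3L mark germ cells that stay out of meiosis and begin to remethylate their genome. Small RNAs bound to PIWI proteins (piRNAs) keep transposons silent while DNA methylation is low.

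Germ cells made up 2.65 to 19.7% of the kept cells, with 155 to 1308 cells, 9507996 to 44201419 summed UMIs and a median of 23795 to 61744 UMIs per cell in a library. Xist was at 23.1 to 66.7 CPM in XX germ cells and at 0.304 to 2.63 CPM in XY germ cells, and no UMI of the Y-linked Ddx3y, Uty, Kdm5d or Eif2s3y was counted in XX germ cells. Wt1, a gene of gonadal somatic cells, was at 9.02 to 39.1 CPM in the germ cell sums. Its 3' tags do not separate the splice variants and so do not check the mutations. The 10 markers of gonadal somatic cells summed to 52.1 to 227 CPM in germ cells against 1201 to 1687 CPM in the other cells, none of the 10 at 0, and stood highest in the XY WT libraries at 227 and 217 CPM. The 8 erythroid markers summed to 52.3 to 5528 CPM in germ cells against 6125 to 43341 CPM in the other cells. XX -KTS KO replicate 2 stood apart in cells with few gate UMIs and in germ cell RNA of other cells: 116 of its 1110 germ cells had only 20 to 29 UMIs of the 5 gate genes, against 0 to 21 cells in the other libraries, and Dppa5a was at 92.4 CPM in its other cells against 1.73 to 19.3 CPM elsewhere. The source of this RNA was not tested. Of 66 pairs of libraries, 11 shared a germ cell barcode, with at most 2 shared.

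Germ cell genes that did not choose the cells, such as Utf1, Sox2, Nanog, Dnd1 and Prdm14, were counted in these cells in all 12 libraries. Dppa5a, a germ cell and stem cell marker and 1 of the 5 gate genes, had the most UMIs of the 34 with a median of 4636 CPM and a range of 2892 to 5399 CPM. Dppa3, which protects the maternal genome of the zygote from demethylation, had a median of 1350 CPM (1105 to 1829). Utf1, a chromatin factor of pluripotent cells, had a median of 1008 CPM (624 to 1098), and Pou5f1 one of 516 CPM (404 to 654). The gate genes are given by library as a description, since their sum chose the cells. Dppa5a was at 3543 and 3177 CPM in the XX WT, 3957 and 5399 CPM in the XX -KTS KO and 4525 and 4748 CPM in the XX +KTS KO. In XY it was at 5001 and 4292 CPM in the WT, 4901 and 4749 CPM in the -KTS KO, and 2892 and 5293 CPM in the +KTS KO. The lowest and the second highest library were thus of 1 group, the XY +KTS KO. Dppa3 was at 1387 and 1105 CPM in the XX WT, 1291 and 1250 CPM in the XX -KTS KO and 1511 and 1386 CPM in the XX +KTS KO. In XY it was at 1506 and 1121 CPM in the WT, 1577 and 1314 CPM in the -KTS KO, and 1158 and 1829 CPM in the +KTS KO. The mutant groups overlapped the WT of their sex in all 4 cases. Pou5f1 was at 522 and 514 CPM in the XX WT, 514 and 491 CPM in the XX -KTS KO and 518 and 581 CPM in the XX +KTS KO. In XY it was at 511 and 453 CPM in the WT, 636 and 566 CPM in the -KTS KO, and 404 and 654 CPM in the +KTS KO. The XY -KTS KO libraries thus lay above both XY WT libraries for Pou5f1, in a comparison where 43.4% of all genes did not overlap. Because the tags are counted at the 3' end and were not divided by length, levels are compared here across libraries rather than between genes. Sox2 lies inside the transcript of Sox2ot on the same strand, so that its tags may in part be those of the longer RNA.

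The spread of each gene over the 12 libraries was described by the ratio of its highest to its lowest level. The ratio was under 2 for 14 of the 32 genes that passed the filter on low counts, against 48.2% of all genes tested and 79.2% of those with a median of at least 10 CPM. The 14 were all of the specification and network genes but Lin28a, among them Pou5f1 (1.62), Sox2 (1.62), Nanog (1.70) and Prdm14 (1.44), which directs primordial germ cell specification. The early germ cell genes Tfap2c and Prdm1 had ratios of 1.94 and 1.78. Sall4, a zinc finger factor of pluripotent cells, ran from 67.9 to 127 CPM (1.87), and Dppa4, a chromatin protein of pluripotent cells, from 134 to 230 CPM (1.72). Lin28a, which blocks maturation of let-7 microRNAs, had the highest ratio of the network genes with 2.41. A ratio of 3 or more was found for 11 of the 32 genes, against 31.5% of all genes tested, and all 11 were Ddx4, Dazl or genes of the piRNA pathway or of meiosis. Of the 11, 7 had a median under 10 CPM, with 198 to 1227 UMIs over all 12 libraries, and the part of counting noise in their ratios was not tested. The other 4 were Ddx4, Dazl, Mael and Sycp1, among 9 such genes with at least 10 CPM, against 5.11% of all genes at that level. Ddx4 and Dazl are gate genes, as are Pou5f1, Dppa3 and Dppa5a among the 14. Their UMIs chose the cells, so these counts are a description only.

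**Figure D1:**
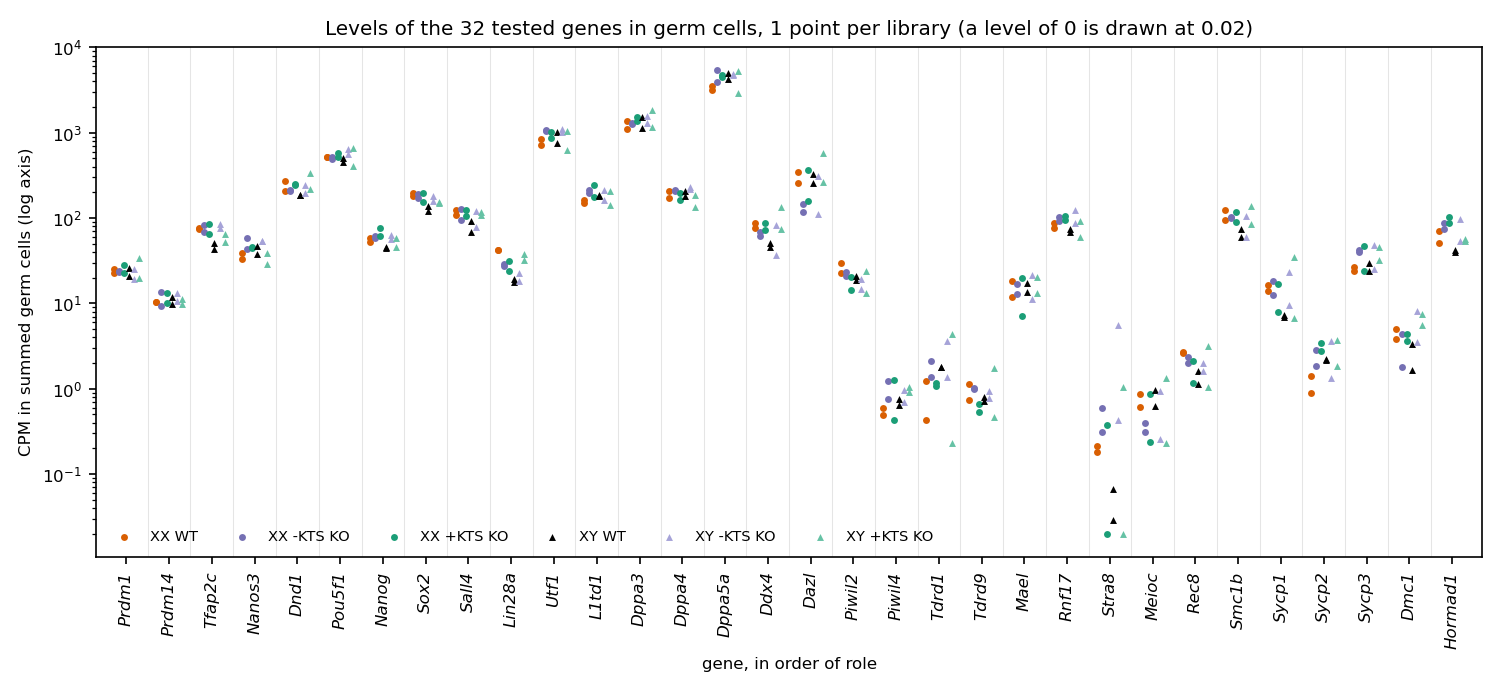
Level of each of the 32 genes that passed the filter in the summed germ cells, as CPM on a log axis, with 1 point per library and a colour per group. Dppa5a, Dppa3 and Utf1 lie highest, Stra8, Meioc, Piwil4 and Tdrd9 lie around or under 1 CPM, and the points of Stra8, Tdrd1, Meioc, Sycp1 and Dazl spread most.

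Both genes of male germ cell fate were at the edge of detection. Nanos2, the RNA-binding repressor of meiosis in male germ cells, had 3 UMIs in all 8044 germ cells. Dnmt3l, a cofactor of de novo DNA methylation, had 4. Neither passed the filter, and no difference between groups could be detected at this depth. The 9 meiosis genes were all tested. The synaptonemal axis gene Sycp3, the cohesin gene Smc1b and the axis gene Hormad1 had medians of 30.9, 97.1 and 63.8 CPM. Those of Sycp1, Dmc1 and Sycp2 were 13.1, 4.09 and 2.20 CPM, and those of the meiotic cohesin gene Rec8, Meioc and Stra8 were 1.99, 0.625 and 0.261 CPM.

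The 32 tested genes were compared between groups in 1 edgeR quasi-likelihood fit over 14865 genes, with Benjamini-Hochberg adjustment over all of them (FDR). In the 4 comparisons of a mutant with the WT of the same sex, edgeR called none of the 32 genes at an FDR of 0.05. The share called among all genes was also low, with 0.0471% in the XX -KTS KO, 0.303% in the XY -KTS KO, 0.0471% in the XX +KTS KO and 0.0942% in the XY +KTS KO. At an unadjusted p under 0.05, the same comparisons held 3, 7, 3 and 7 of the 32 genes, against 9.57%, 9.69%, 6.57% and 8.18% of all genes. The 32 include the gate genes, whose UMIs chose the cells. Of the 27 tested genes outside the gate, 2, 7, 3 and 6 had such a p. In the order above, DESeq2 called 0, 2, 0 and 1, the 3 calls being Tfap2c and Stra8 in the XY -KTS KO and Lin28a in the XY +KTS KO. Over all genes it called 117, 214, 46 and 86. The median SE of a member's log2 fold change was 0.26 in each of these comparisons, which limits the differences that this test could call.

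Nor did this edgeR fit call any of the 32 genes for a sex difference in the effect of a mutation, where 0.0538% of all genes were called for -KTS and 0.0605% for +KTS. At an unadjusted p under 0.05 these contrasts held 4 and 3 of the 32 genes, against 5.38% and 5.82% of all genes. Outside the gate they held 4 and 2 of the 27 tested genes. For +KTS, Lin28a was called by DESeq2, with 64 genes called in all, and with the tail-somite term, with 170. Without the filter edgeR called Stra8 and Dmc1 for -KTS and Sycp1, Lin28a and the gate gene Ddx4 for +KTS. That fit called 408 and 374 genes in all for -KTS and +KTS.

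Between the sexes in the WT, where 1.05% of all genes were called, 1 of the 32 genes passed in this edgeR fit, and it was Lin28a. At an unadjusted p under 0.05 the comparison held 6 of the 32 genes, against 12.8% of all genes. All 6 were among the 27 tested genes outside the gate. The level of Lin28a was 42.3 CPM in both XX WT libraries. In the XY WT it was 17.6 and 19.08 CPM, so that the groups did not overlap, where 47.8% of all genes did not. The log2 fold change of XY against XX was -1.21 (SE 0.18, edgeR quasi-likelihood test, FDR 0.0120). Without any 1 of the 4 WT libraries the log2 fold change stayed between -1.27 and -1.15 and the FDR ran from 0.0715 to 0.148. With germ cells above 200 CPM of somatic markers left out it was -1.04 with an FDR of 0.0193. The part of the higher somatic markers of the XY WT libraries in the rest was not tested.

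The share of germ cells with a Lin28a UMI was also lower in the XY WT. In cells thinned to 5000 UMIs it was 20.4 and 17.4% in the XX WT and 9.01 and 9.44% in the XY WT. Without thinning the shares were 67.9 and 69.3% against 34.4 and 44.7%. Other cells, which should lack the gene, had a Lin28a UMI in 0.0941 to 0.609% of thinned cells.

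In the mutants the Lin28a levels lay between the highest XX WT and the lowest XY WT library. The XX -KTS KO libraries had 29.2 and 27.7 CPM, and the XX +KTS KO libraries had 23.8 and 31.5 CPM. Both groups lay wholly below the XX WT, but the log2 fold changes of -0.57 (SE 0.18) and -0.62 (SE 0.18) did not pass (FDR 0.374 and 0.531). Of all genes, 49.1% and 38.7% did not overlap in these comparisons. The XY -KTS KO libraries, at 18.3 and 22.5 CPM, overlapped the XY WT. The XY +KTS KO libraries had 37.8 and 31.95 CPM, above both XY WT libraries, with a log2 fold change of 0.93 (SE 0.18, FDR 0.163). There 33.3% of all genes did not overlap. The effect of losing +KTS on Lin28a in XY minus that in XX was 1.55 log2 units (SE 0.26, FDR 0.0754), in a contrast where 0.0605% of all genes were called. DESeq2 called this difference (FDR 6.98e-05), as did the fit with tail somites as a term (FDR 0.0392). These settings called 64 and 170 genes in all in this contrast, against 9 in the main fit.

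The Lin28a gene is on the minus strand of chromosome 4 (mm10 chr4:134003330-134018841), and the RefSeq promoter window of its 5'-most listed start is shown because it was the only one of the 32 tested genes called in the edgeR fit of filtered genes. Without the filter on low counts edgeR called further members, as the closing section states. The window runs from 250 bases before to 50 bases after the start (GRCm38.p6 chr4:134018767-134019066, minus strand, 5′ to 3′), and no CACGTG was found in it, so it carries no capitals.
Lin28a: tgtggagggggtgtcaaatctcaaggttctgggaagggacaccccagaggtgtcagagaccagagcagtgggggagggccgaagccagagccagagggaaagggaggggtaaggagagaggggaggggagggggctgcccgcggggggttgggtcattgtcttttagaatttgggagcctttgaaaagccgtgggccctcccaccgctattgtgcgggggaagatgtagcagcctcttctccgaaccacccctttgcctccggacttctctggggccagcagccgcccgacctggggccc

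Of the 32 tested genes, 13 had their lowest level in an XY +KTS KO library and 10 in an XY WT library, against 30.2% and 12.2% of all genes tested. Tfap2c, an AP-2 transcription factor of germ cell specification, was at 43.7 and 51.0 CPM in the XY WT. It was at 75.3 and 75.4 CPM in the XX WT and at 77.2 and 84.7 CPM in the XY -KTS KO. The XY WT thus lay below both other groups without overlap, with log2 fold changes of -0.67 (SE 0.18, FDR 0.116) against the XX WT and 0.77 (SE 0.18, FDR 0.131) for the XY -KTS KO against the XY WT, neither of which passed in edgeR. DESeq2 called both, as did edgeR without the filter on low counts, and the fit with a tail-somite term called the first. In the first comparison these settings called 413, 1135 and 774 genes in all. In the second, DESeq2 and the fit without the filter called 214 and 859. In the same order, 47.8% and 43.4% of all genes did not overlap between the groups. Sox2 was at 121 and 137 CPM in the XY WT against 179 and 196 CPM in the XX WT (log2 fold change -0.54, SE 0.17, FDR 0.175).

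In the XY -KTS KO against the XY WT, 28 of the 32 genes had a positive log2 fold change with a median of 0.29, against 51.3% of all genes tested and a median of 0.01. The 32 include the gate genes, whose UMIs chose the cells. Of the 27 tested genes outside the gate, 24 were positive with a median of 0.31. With germ cells above 200 CPM of somatic markers left out, 20 of the 32 were positive and the median was 0.09. In the XY +KTS KO 25 of the 32 were positive with a median of 0.34, and 23 with a median of 0.21 after the same step. Outside the gate, before that step, 21 of 27 were positive with a median of 0.37, against 7388 of all 14865 genes. In the XX -KTS KO and XX +KTS KO, 18 and 17 of the 32 were positive, with medians of 0.02 and 0.06. Outside the gate 16 and 14 of the 27 were positive, against 7301 and 7472 of the 14865 genes.

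**Figure D2:**
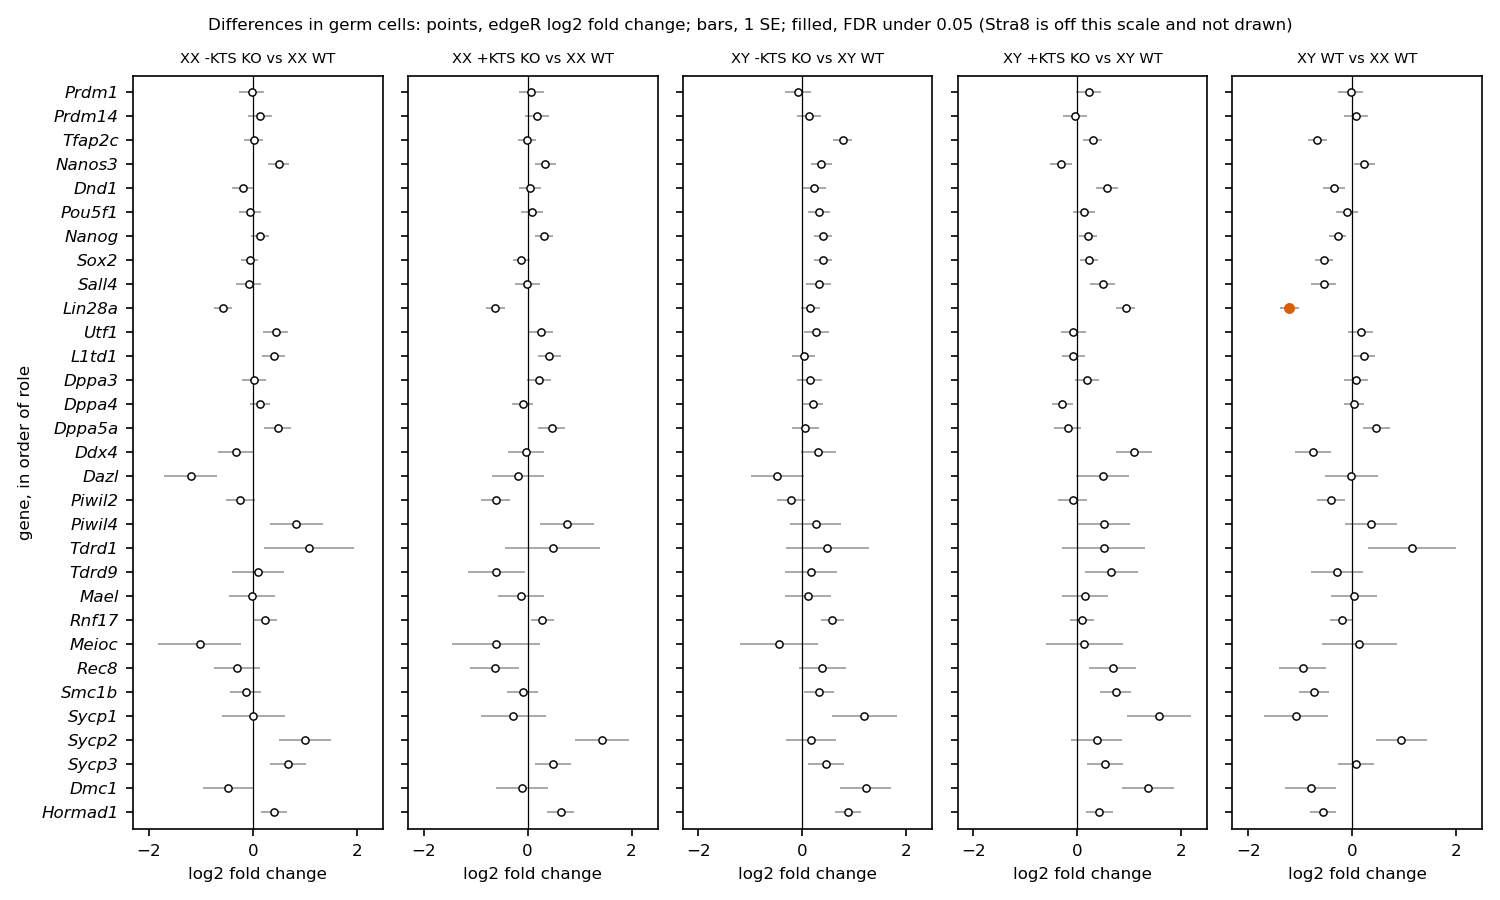
Log2 fold changes of 31 of the 32 tested genes in the 4 comparisons of mutant with WT and in XY WT against XX WT, with bars of 1 SE from the edgeR fit of 6 groups with 2 libraries each. Lin28a in the last panel, at -1.21, is the only filled point (FDR under 0.05), and Stra8 is not drawn because its values run from -1.92 to 5.77.

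The RNA-binding proteins of licensing differed widely between replicates. Both are gate genes, whose summed UMIs chose the cells, and their levels are given as a description. Dazl was at 346 and 254 CPM in the XX WT and at 260 and 332 CPM in the XY WT. It was at 145 and 117 CPM in the XX -KTS KO, below both XX WT libraries. In that comparison the groups did not overlap for 49.1% of all genes. In the XY -KTS KO Dazl was at 111 CPM in replicate 1 and 314 CPM in replicate 2. The XX +KTS KO gave 370 and 157 CPM and the XY +KTS KO 570 and 261 CPM. The 2 libraries of 1 genotype and sex thus differed by up to 2.83 times. The library with more Dazl was the one with more tail somites in 3 of the 5 groups whose libraries differed in stage.

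Ddx4 encodes the VASA helicase of the germ granule. It was at 76.4 and 87.6 CPM in the XX WT and at 46.3 and 51.0 CPM in the XY WT. The XY +KTS KO libraries were at 134 and 73.9 CPM, both above the XY WT, where 33.3% of all genes did not overlap. Ddx4 is a gate gene, and this is a description. In the XY -KTS KO Ddx4 was at 37.0 and 83.4 CPM and overlapped the XY WT. The XX -KTS KO had 69.4 and 61.3 CPM and the XX +KTS KO 88.3 and 72.6 CPM. Among the 31 other tested genes, 8 were higher in the same replicate as Dazl in 5 or 6 of the 6 groups: Smc1b and Rec8 in 6, and Ddx4, Sycp1, Stra8, Rnf17, Prdm1 and Lin28a in 5. Of all other genes tested, 13.9% did so. This is a description of 6 pairs of libraries.

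**Figure D3:**
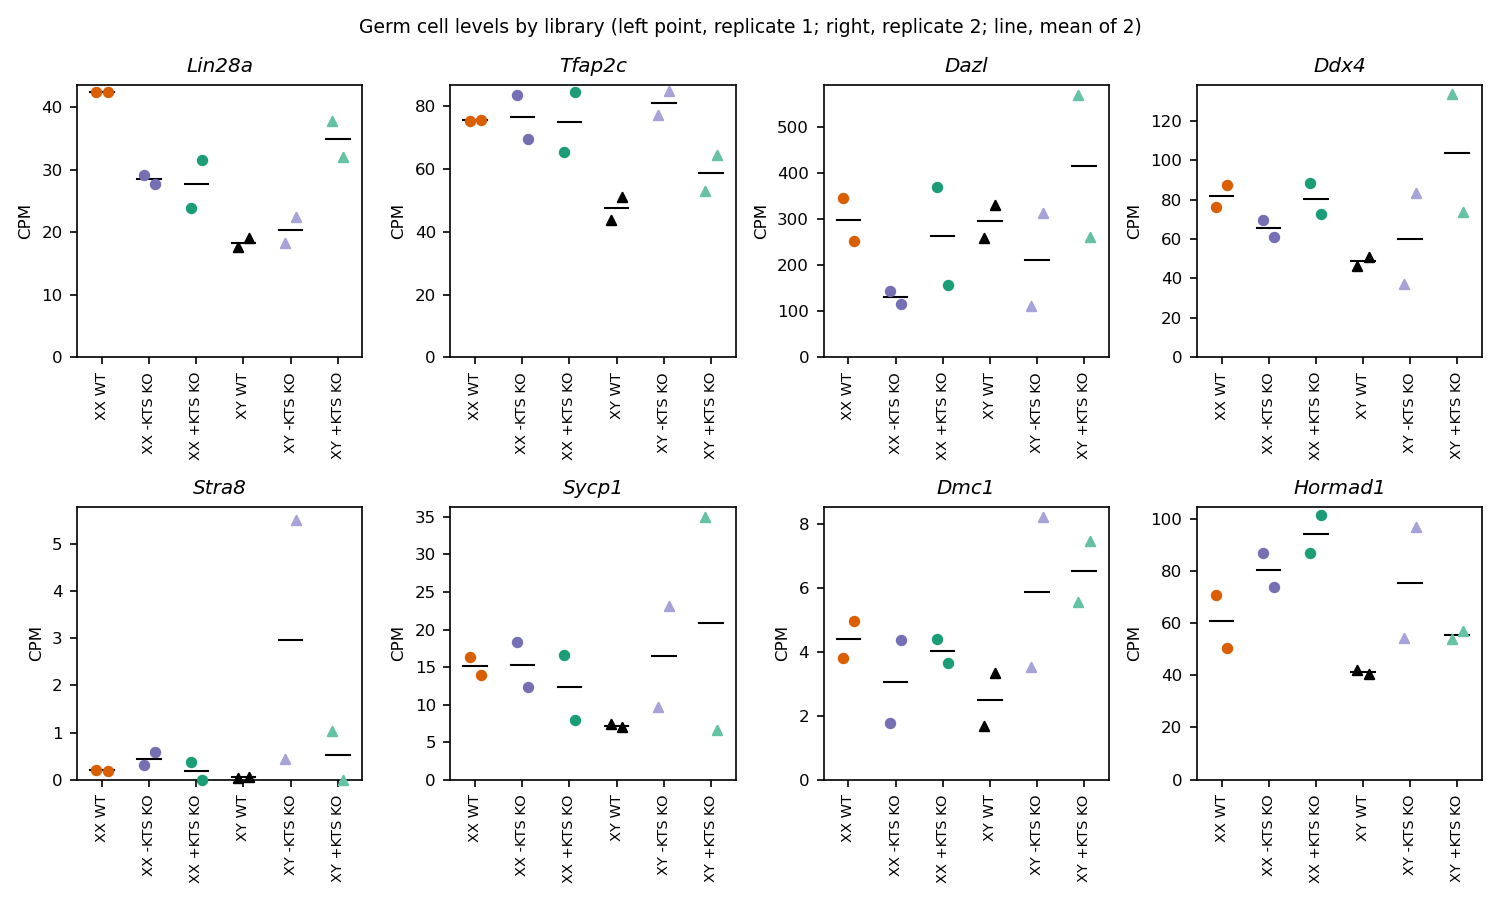
CPM of 8 genes in the summed germ cells, with 1 point per library, replicate 1 on the left, and a line at the mean of 2. The XX WT and XY WT points of Lin28a are wide apart (42.3 against 17.6 and 19.08 CPM). Dazl and Sycp1 differ by up to 2.83 and 5.24 times between replicates of a mutant group, and Stra8 is high in XY -KTS KO replicate 2 alone (5.52 CPM).

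The piRNA pathway genes showed no called difference in edgeR, with or without the filter, or in DESeq2. Rnf17, a Tudor protein of germ granules, ran from 60.0 to 125 CPM over the 12 libraries, the PIWI gene Piwil2 from 13.3 to 30.1 CPM and Mael from 7.09 to 21.74 CPM. Piwil4, which guides DNA methylation in fetal male germ cells, had a median of 0.756 CPM and Tdrd9 one of 0.786 CPM. Tdrd1 ran from 0.230 to 4.43 CPM, and both ends were XY +KTS KO libraries. Levels of these 3 rare genes were only 2.20 to 3.07 times those in the other cells, and a share of their counts may come from RNA of those cells, which was not tested.

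Stra8, which starts the meiotic programme, was rare in every group. It was at 0.216 and 0.182 CPM in the XX WT and at 0.0288 and 0.0663 CPM in the XY WT. The XX +KTS KO had 0.378 CPM and no UMI, the XY +KTS KO 1.04 CPM and no UMI, and the XX -KTS KO 0.307 and 0.590 CPM. In the XY -KTS KO, replicate 1 had 0.431 CPM and replicate 2 had 5.52 CPM. A single library was thus far above the rest. The log2 fold change of the XY -KTS KO against the XY WT was 5.77 (SE 1.41, FDR 0.144), and without that replicate it was 3.00 with an FDR of 0.779.

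The signal of replicate 2 came from few cells. A Stra8 UMI was counted in 24 of its 460 germ cells, a share of 5.22% (exact 95% binomial interval 3.37 to 7.66%, counting error only). At 5000 UMIs per cell the share was 1.35%, against 0 to 1.06% in the other libraries. The second highest library, XY +KTS KO replicate 1, had 16 of 572 cells (2.80%). In XY -KTS KO replicate 1, 1 cell held all 10 UMIs. Among other cells of the 12 libraries, at most 0.142% had a Stra8 UMI before thinning. The 0 of 155 cells in XX +KTS KO replicate 2 and the 0 of 216 in XY +KTS KO replicate 2 allow shares of up to 2.35% and 1.69%, the upper ends of the same kind of interval.

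In XY -KTS KO replicate 2, 9 cells with at least 3 Stra8 UMIs held 101 of the 119 UMIs, with up to 17 in a cell. Their choice fixes Stra8 itself, and the other 33 genes are described here for these 9 cells against the 436 cells of the same library without Stra8, with exact 95% Poisson intervals for the summed counts. The intervals cover counting error only and not the spread between cells. This is 1 library, chosen after its values were seen, no test is possible, and the values are a description of these 9 cells. Dazl was at 701 CPM (623 to 786) against 289 CPM, and Ddx4 at 155 CPM (120 to 198) against 77.6 CPM. Both are the RNA-binding proteins of licensing, and both are gate genes, so that their UMIs helped to choose the cells.

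Of the 8 other meiosis genes, 4 had summed levels above those of the cells without Stra8 by more than counting error, against 8.10% of 14859 genes and 10.3% of those with at least 10 CPM in the cells without Stra8. Sycp3 was at 103 CPM (74.4 to 139) against 45.0 CPM, and Smc1b at 213 CPM (171 to 262) against 98.7 CPM. Meioc, whose product stabilises the meiotic transcripts, was at 16.7 CPM (6.73 to 34.5, 7 UMIs in 3 cells) against 0.569 CPM. Hormad1 was at 134 CPM (101 to 174) against 91.0 CPM. For Sycp1, Rec8, Dmc1 and Sycp2 the level in cells without Stra8 lay within the interval. Of the 6 piRNA pathway genes, Mael alone was outside it, at 38.3 CPM (21.9 to 62.1) against 20.8 CPM.

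Of the 15 specification and pluripotency genes, 8 had summed levels below those of the cells without Stra8 by more than counting error, and none above. Below were 4.22% of the 14859 genes and 8.86% of those with at least 10 CPM. These shares, like those above, are not matched for level, and an abundant gene leaves its interval at a smaller difference. Utf1, Pou5f1 and Dppa5a, all below, had ratios of 0.675, 0.776 and 0.706. Pou5f1 and Dppa5a are also gate genes. Nanos3, which keeps primordial germ cells alive, was at 7.17 CPM (1.48 to 21.0, 3 UMIs) against 53.8 CPM. Tfap2c was at 23.9 CPM (11.5 to 44.0) against 83.5 CPM. L1td1, an RNA-binding protein of pluripotent cells, was at 98.1 CPM (70.4 to 133) against 206 CPM. Utf1 was at 672 CPM (596 to 755) against 996 CPM, and Pou5f1 at 428 CPM (368 to 496) against 552 CPM. Scrublet called 1 of the 9 cells a doublet, and 1 exceeded 200 CPM of somatic markers. Their median of 44118 UMIs was near the 47960 of all germ cells of that library.

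No meiosis gene passed in the edgeR fit of filtered genes. DESeq2 called Stra8 in the XY -KTS KO. Without the filter edgeR called Hormad1, Sycp1, Stra8 and Dmc1 in the XY -KTS KO, Sycp1, Stra8, Dmc1 and Smc1b in the XY +KTS KO, and Sycp1 and Smc1b in XY WT against XX WT. In the same order that fit called 859, 562 and 1135 genes in all. The 2 libraries of each group did not overlap for 7 of the 9 in XY WT against XX WT, 4 in the XY -KTS KO and 4 in the XY +KTS KO against the XY WT, where 47.8%, 43.4% and 33.3% of all genes did not. In the XX -KTS KO and XX +KTS KO against the XX WT these were 6 and 3, against 49.1% and 38.7%. Sycp1, of the synaptonemal transverse filament, was at 7.38 and 6.96 CPM in the XY WT and 16.3 and 13.9 CPM in the XX WT (log2 fold change -1.08, SE 0.62). In the XY +KTS KO it was at 34.9 and 6.67 CPM and overlapped the XY WT. Dmc1, the meiotic recombinase, was at 1.67 and 3.34 CPM in the XY WT and at 3.54 and 8.21 CPM in the XY -KTS KO (log2 fold change 1.22, SE 0.49, FDR 0.455). Hormad1 was at 41.9 and 40.5 CPM in the XY WT, 54.2 and 96.6 CPM in the XY -KTS KO (log2 fold change 0.87, SE 0.25, FDR 0.237) and 53.7 and 57.1 CPM in the XY +KTS KO. Every library of the other 5 groups thus had more Hormad1 than both XY WT libraries. The share of all genes with such a separation was not counted.

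RefSeq promoter windows of the same kind were matched for 25 of the 34 genes, taking the 5'-most start of each gene. The E-box CACGTG, which is its own reverse complement and is known to be bound by MAX dimers, was found in 7 of the 25, against 7.24% of 27025 promoters. The 7 were Ddx4, the piRNA pathway genes Mael, Tdrd1 and Tdrd9, and the meiosis genes Sycp1, Sycp3 and Hormad1. The E2F-type motif TCCCGC, read on both strands as TCCCGC or GCGGGA, was found in 9 of the 25 against 20.1% of all. The motifs were chosen with these results known, and a match is a stretch of letters and not a site shown to be bound.

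No CACGTG was found in the windows of Dazl, Stra8, Meioc, Rec8, Smc1b, Sycp2, Dmc1, Prdm1 or Lin28a. The windows of Ddx4, Mael, Sycp1, Sycp3 and Hormad1, the 5 of the 7 genes with a median level of 10 CPM or more, are shown with CACGTG in capitals (GRCm38.p6, 5′ to 3′). Ddx4 lies at chr13:112652261-112652560 on the minus strand, Mael at chr1:166238695-166238994 on the minus strand, Sycp1 at chr3:102936051-102936350 on the minus strand, Sycp3 at chr10:88459337-88459636 on the plus strand and Hormad1 at chr3:95559427-95559726 on the plus strand. The first base of the motif lay 29 bases before the start in Ddx4, 223 in Mael and 94 in Sycp1. It lay 64 and 43 bases before in Sycp3, and 57 and 20 in Hormad1.
Ddx4: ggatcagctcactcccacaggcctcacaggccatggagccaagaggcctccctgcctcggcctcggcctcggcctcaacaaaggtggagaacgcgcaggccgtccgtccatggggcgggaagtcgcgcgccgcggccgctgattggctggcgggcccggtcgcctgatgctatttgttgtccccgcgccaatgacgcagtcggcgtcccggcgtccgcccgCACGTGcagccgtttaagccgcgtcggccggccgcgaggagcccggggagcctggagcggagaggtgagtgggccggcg
Mael: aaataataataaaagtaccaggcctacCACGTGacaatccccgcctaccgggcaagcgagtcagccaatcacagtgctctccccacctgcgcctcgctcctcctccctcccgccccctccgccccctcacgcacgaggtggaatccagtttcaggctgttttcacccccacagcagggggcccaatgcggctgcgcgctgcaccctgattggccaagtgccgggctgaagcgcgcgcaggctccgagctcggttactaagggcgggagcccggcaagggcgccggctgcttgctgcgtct
Sycp1: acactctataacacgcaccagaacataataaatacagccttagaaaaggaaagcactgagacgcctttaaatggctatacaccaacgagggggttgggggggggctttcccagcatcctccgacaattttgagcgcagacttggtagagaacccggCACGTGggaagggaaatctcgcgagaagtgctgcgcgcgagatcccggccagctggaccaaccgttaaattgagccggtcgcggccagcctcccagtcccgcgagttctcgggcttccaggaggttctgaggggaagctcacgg
Sycp3: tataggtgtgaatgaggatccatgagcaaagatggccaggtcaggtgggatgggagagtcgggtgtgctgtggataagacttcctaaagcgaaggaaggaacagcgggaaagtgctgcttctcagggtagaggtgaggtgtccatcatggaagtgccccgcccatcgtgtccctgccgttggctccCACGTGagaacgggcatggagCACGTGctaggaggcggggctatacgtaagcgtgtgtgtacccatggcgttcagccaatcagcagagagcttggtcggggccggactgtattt
Hormad1: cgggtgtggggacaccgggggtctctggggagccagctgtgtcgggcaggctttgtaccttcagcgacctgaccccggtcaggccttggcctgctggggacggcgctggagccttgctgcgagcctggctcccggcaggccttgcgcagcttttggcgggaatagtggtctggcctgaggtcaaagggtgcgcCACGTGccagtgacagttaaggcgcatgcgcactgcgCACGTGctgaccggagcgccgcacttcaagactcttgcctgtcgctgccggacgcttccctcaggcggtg

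Most of the 34 genes were far higher in germ cells than in the rest of the gonad. As plain CPM averaged over 12 libraries, 24 of the 32 tested genes were at least 20 times and 15 at least 100 times higher in germ cells than in all other kept cells. For the 5 gate genes this was fixed by the choice of cells. The ratio was under 10 for 7 genes: Nanos3, Rec8, Dmc1, Meioc, Piwil4, Tdrd1 and Tdrd9. Rec8 was the only one with a higher mean in other cells, at 2.60 CPM against 1.98 CPM in germ cells.

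**Figure D4:**
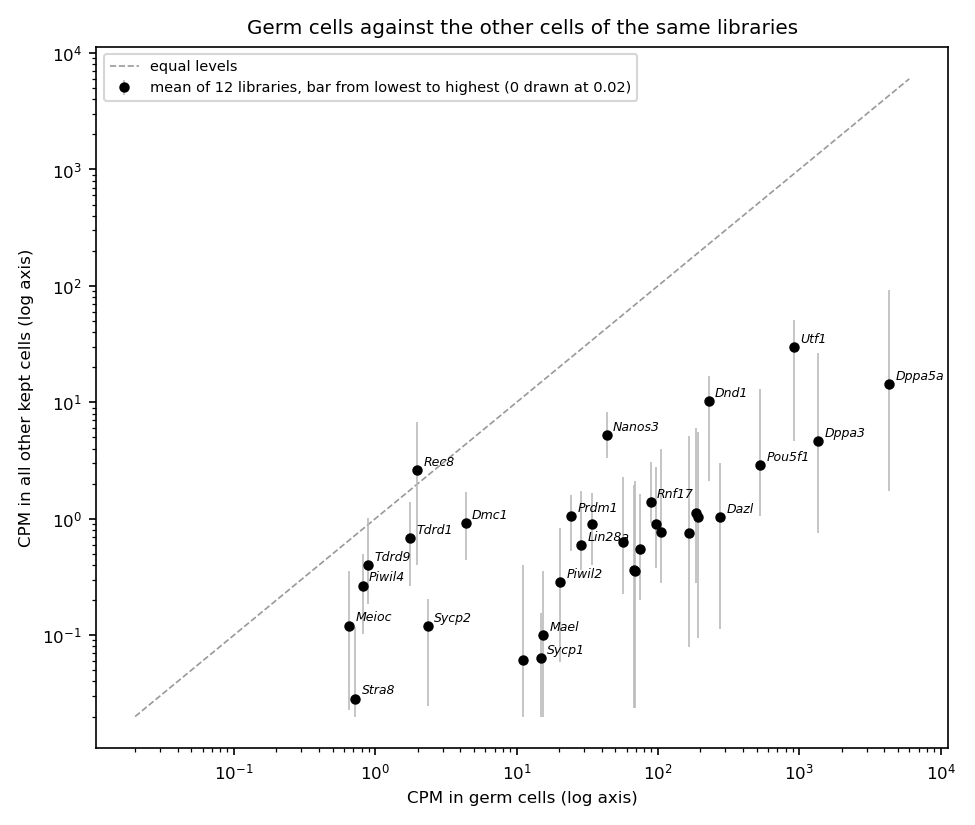
Mean CPM of the 32 tested genes in germ cells (x) and in all other kept cells (y) over 12 libraries, both on log axes, with bars from the lowest to the highest library and the dashed line at equal levels. Rec8 lies above the line, Utf1, Dnd1 and Nanos3 stand above the other abundant genes, and the long upper bars of Dppa5a and Dppa3 end at XX -KTS KO replicate 2.

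Genes of the same pathways outside the 34 were examined in 5 lists. Of 20 further meiosis genes tested, 1 was called, Zglp1 in XY WT against XX WT, where 1.05% of all genes were called. Of 16 further piRNA and germline defence genes and 13 genes of DNA methylation and reprogramming, none was called in any of the 7 comparisons by edgeR. At an unadjusted p under 0.05 these 2 lists held at most 4 and 2 genes in a comparison, the 4 in the XX -KTS KO (9.57% of all genes) and the 2 in the XY -KTS KO (9.69%). Of 18 further pluripotency genes, Lefty1 and Lefty2 were called in 5 comparisons and no other gene in any. The 5 were the XX -KTS KO and XX +KTS KO (0.0471% of all genes in each), XY WT against XX WT (1.05%) and the sex differences of the -KTS and +KTS effects (0.0538% and 0.0605%). All 5 include the XX WT libraries.

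Lefty1 and Lefty2 encode secreted inhibitors of Nodal signalling, which they are known to follow as feedback targets. Lefty1 was at 5.97 and 5.86 CPM in the XX WT and at 98.0 and 57.2 CPM in the XY WT. In the XX -KTS KO it was at 59.9 and 80.9 CPM and in the XX +KTS KO at 75.9 and 78.9 CPM. It was at 60.4 and 33.0 CPM in the XY -KTS KO and at 36.8 and 82.4 CPM in the XY +KTS KO. Every library of the other 5 groups thus lay above both XX WT libraries. The same held for Lefty2, with 5.60 and 8.27 CPM in the XX WT, 127 and 104 CPM in the XY WT, and 51.5 to 149 CPM in the 8 mutant libraries. How many of all genes were so separated was not counted.

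All 3 comparisons with the XX WT passed for both genes. The log2 fold changes of Lefty1 were 3.57 (SE 0.43, FDR 0.0179) in the XX -KTS KO, 3.71 (SE 0.43, FDR 0.00897) in the XX +KTS KO and 3.71 (SE 0.43, FDR 0.00259) in the XY WT. Those of Lefty2 were 3.198 (SE 0.30, FDR 0.00607), 4.04 (SE 0.31, FDR 0.000777) and 4.06 (SE 0.31, FDR 0.000186). The comparisons share the XX WT libraries and are not independent of each other. Without XX WT replicate 1 the FDR of Lefty1 was 0.491, 0.244 and 0.0748 in the same order, at log2 fold changes of 3.59, 3.72 and 3.72. Without XX WT replicate 2 the XX comparisons of Lefty1 gave 0.182 and 0.145. The call of Lefty1 in the XX -KTS KO was also lost without replicate 1 or 2 of that group (FDR 0.0712 and 0.108), and that in the XX +KTS KO without its replicate 1 (FDR 0.0655). Lefty2 in the XX -KTS KO had an FDR of 0.152 without XX WT replicate 1 and 0.0545 without XX -KTS KO replicate 2. With 1 library left in a group, the fit takes it to vary like the other groups. With tail somites as a term, the XX -KTS KO and XX +KTS KO values of Lefty1 were 3.33 and 3.37 and stayed past the threshold (FDR 0.0158 and 0.0203). The XX WT libraries had 24 to 25 tail somites. The XX -KTS KO libraries had 23 and 20 to 25, and the XX +KTS KO libraries 23 and 20. Each XX mutant library thus had a lower mean count than both XX WT libraries. Stage and genotype cannot be told apart in any comparison of an XX mutant with the XX WT. In XX WT germ cells thinned to 5000 UMIs, 3.05 and 2.49% had a Lefty1 UMI, against 22.5 to 33.1% in the 4 XX mutant libraries.

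Id1 and Msx2, targets of BMP signalling, and Zglp1, a GATA-like factor of the oogenic programme, were the other genes of the lists that passed, all lower in XY WT than in XX WT. Id1 was at 124 and 141 CPM in the XX WT and 25.6 and 30.9 CPM in the XY WT (log2 fold change -2.22, SE 0.42, FDR 0.0331). Msx2 was at 60.4 and 38.0 CPM against 11.4 and 16.9 CPM (-1.80, SE 0.30, FDR 0.0209). Zglp1 was at 73.7 and 47.9 CPM against 15.6 and 19.97 CPM (-1.77, SE 0.32, FDR 0.0288). None overlapped between the groups, where 47.8% of all genes did not. Zglp1 lost its call without Scrublet doublets (FDR 0.0573) and with cells rich in somatic markers left out (FDR 0.0580), and an annotated gene, Gm49373, overlaps it on the same strand. Leaving out 1 library also ended calls: that of Id1 without any 1 of the 4 WT libraries (FDR 0.143 to 0.294), and those of Msx2 and Zglp1 without XX WT replicate 1, XY WT replicate 1 or XY WT replicate 2 (FDR 0.0692 to 0.280 and 0.113 to 0.315). Of 12 tested genes of retinoic acid and BMP response, 2 were called lower in XY WT and 9 had an unadjusted p under 0.05, against 12.8% of all genes, with a median log2 fold change of -0.995 against -0.01 over all genes. As plain CPM, 10 of the 12 had a lower mean in germ cells than in other cells, Id1 among them at 59.5 against 97.3 CPM. Msx2 was at 27.4 CPM in germ cells against 2.73 CPM in other cells. The part of RNA from other cells in the germ cell sums of these genes was not tested.

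In the XX mutants, Zglp1 was at 15.9 and 13.3 CPM in the -KTS KO and at 25.1 and 21.6 CPM in the +KTS KO, all below the XX WT. The log2 fold changes were -2.06 (SE 0.33, FDR 0.0773) and -1.38 (SE 0.32, FDR 0.358). Id1 was at 51.9 and 21.69 CPM and at 43.7 and 23.8 CPM, with log2 fold changes of -1.85 (SE 0.41, FDR 0.224) and -1.96 (SE 0.42, FDR 0.287). Neither passed. For both genes all 4 XX mutant libraries lay below both XX WT libraries. Of all genes, 49.1% did not overlap in the -KTS KO comparison and 38.7% in the +KTS KO comparison.

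**Figure D5:**
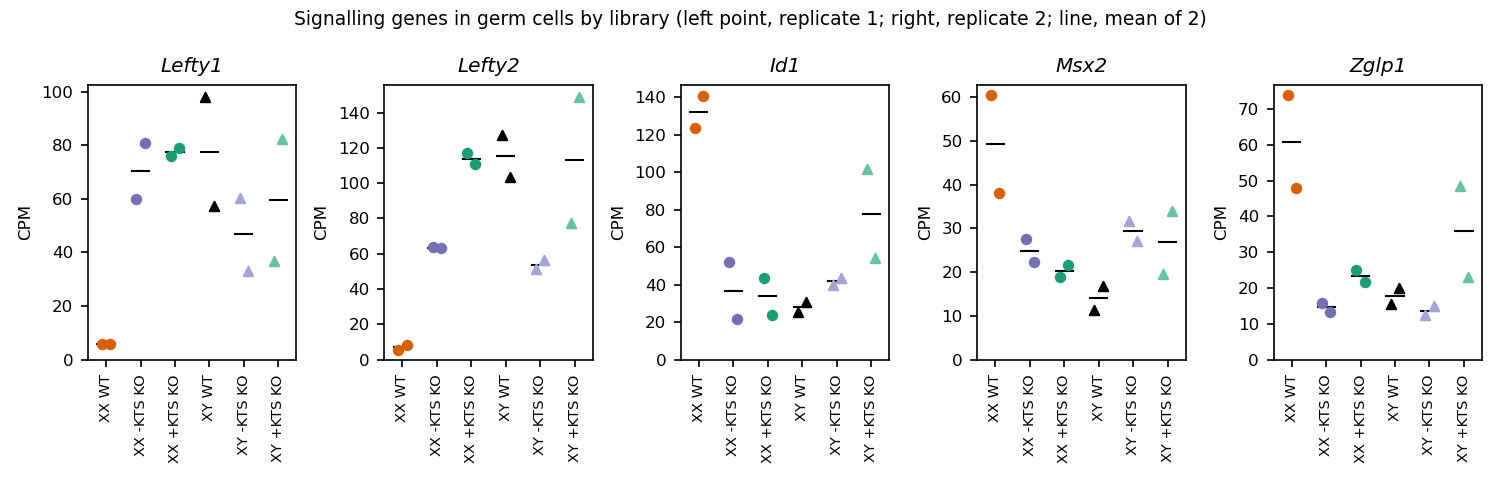
CPM of Lefty1, Lefty2, Id1, Msx2 and Zglp1 in the summed germ cells, with 1 point per library, replicate 1 on the left, and a line at the mean of 2. The XX WT is lowest for Lefty1 and Lefty2 (5.60 to 8.27 CPM) and highest for Msx2 (60.4 and 38.0 CPM).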

How the data were processed

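Single-cell RNA of gonads was captured with the 10x Chromium system and counted by the authors with Cell Ranger 6.0 on mm10. The deposited values are raw UMI counts per gene and barcode, without normalization. The members, gene lists, markers and tests were chosen with earlier results of these data known. Cells with fewer than 1000 genes or over 10% mitochondrial UMIs were left out. Germ cell counts were summed per library, normalized by TMM, filtered with filterByExpr (14865 genes) and fitted as 6 groups with the quasi-likelihood test of edgeR 4.0.16 in R 4.3.3. A call is an FDR of 0.05. Alternatives were DESeq2 1.42.0, RLE factors, no filter, gates of 10 and 50 UMIs, thinning to 5000 UMIs, removal of Scrublet doublets (scanpy 1.11.5, 0.8% per 1000 barcodes), a replicate block, a tail-somite term and leaving out each library. An alternative without cells over 200 CPM of somatic markers was added after seeing the data. The fit was tested on simulated data. Positions come from GENCODE M21 and promoters from RefSeq (GRCm38.p6), as tabulated.

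All 34 genes were named, with values per library for called genes and the 5 gate genes. Genes of the other lists were named when called. The per-library values of further members, the 9 cells with Stra8 and the Id1 and Zglp1 values in mutants were chosen after they were seen. Doublets were kept in the main sums. Scrublet called 1346 of the 8044 germ cells, with 21.3 and 21.8% in the XY WT libraries and 8.88 and 13.1% in the XX WT libraries. Replicates differed beyond counting noise. The replicate numbers did not pair the libraries, as the closing section states.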

Additional observations from a re-analysis of the deposited data

Results flagged for a closer look

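The effect of a mutation on Lefty1 and Lefty2 in germ cells differed between the sexes by a test of the difference itself. For loss of -KTS, the log2 fold change in XY minus that in XX was -4.30 for Lefty2 (FDR 0.00610) and -4.30 for Lefty1 (FDR 0.0293), in a contrast where 0.0538% of all genes were called. For loss of +KTS it was -4.08 for Lefty2 (FDR 0.00967) and -4.10 for Lefty1 (FDR 0.0396). In XX both genes rose in each mutant, while in XY Lefty1 had log2 fold changes of -0.73 and -0.39 and Lefty2 of -1.10 and -0.03 for -KTS KO and +KTS KO, none past the threshold. With the replicate block the FDR of Lefty1 was 0.0593 and 0.0709 in these 2 contrasts. Without XX WT replicate 1 the FDR was 0.293 and 0.317 for Lefty1, and 0.0848 and 0.0752 for Lefty2. The Lefty1 calls were also lost without any 1 of several other libraries: for -KTS without either library of XX WT, XX -KTS KO or XY -KTS KO or without XY WT replicate 1, and for +KTS without either library of XX WT or XX +KTS KO, without XY +KTS KO replicate 1 or without XY WT replicate 1 (FDR 0.0574 to 0.293 and 0.0764 to 0.317). Lefty2 for +KTS was also lost without XY WT replicate 1 (FDR 0.0532). Both contrasts share the XX WT and XY WT libraries. In XX, each mutant library had a lower mean count of tail somites than both WT libraries. Stage and genotype therefore cannot be told apart there, as stated above.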

How the results depend on the processing

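The number of the 34 genes called stayed at its main value in 90 of 106 recalculations. Under DESeq2 it was 2 in XY -KTS KO, 1 in XY +KTS KO, 2 in XY WT against XX WT and 1 in the sex difference of the +KTS effect. Without the filter on low counts it was 1 in XX -KTS KO (the gate gene Dazl), 5 in XY -KTS KO, 6 in XY +KTS KO (with the gate gene Ddx4), 5 in XY WT against XX WT (with Ddx4), and 2 and 3 in the sex differences of the -KTS and +KTS effects (with Ddx4 in the latter). With a tail-somite term it was 2 in XY WT against XX WT and 1 in the sex difference of the +KTS effect, the added calls being Tfap2c and Lin28a. Without any 1 of the libraries of the groups compared it was 0 in XY WT against XX WT (lowest 0, highest 0, against 1 with all) and 0 in the other 6 comparisons. Leaving out a library of another group was not run. The cause of these moves was not tested, other than that fewer libraries enter the last. Over single genes, 28 recalculations passed the threshold where the reported value did not, 44 lost a call, and none reversed one. The 30 mean levels of gate genes in cells chosen by the other 4 gate genes all moved by less than the spread between replicates. The replicate numbers did not pair the libraries: over 15 pairs of groups the correlation of replicate deviations ran from -0.24 to 0.37 and exceeded 0.1 in 4. With the replicate block Lin28a in XY WT against XX WT had a log2 fold change of -1.21 (FDR 0.0204), and 2 calls were lost, both of Lefty1 in the sex differences. The counts of all genes called moved more than those of the 34: without the filter they were 488, 859, 291 and 562 in the XX -KTS KO, XY -KTS KO, XX +KTS KO and XY +KTS KO against 7, 45, 7 and 14, under DESeq2 117, 214, 46 and 86, without cells rich in somatic markers 11, 2, 10 and 1, and without Scrublet doublets 11, 0, 10 and 0 by edgeR (848 and 1118 genes at an unadjusted p under 0.05 in the pair at 0). In XY WT against XX WT they were 156, and 16 to 60 without 1 library, the 16 without XX WT replicate 1. Under DESeq2, without the filter and with a tail-somite term, XY WT against XX WT held 413, 1135 and 774 called genes. The sex differences of the -KTS and +KTS effects held 408 and 374 without the filter, against 8 and 9. With 2 libraries a group the number of libraries limits the precision.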

Other observations

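Utf1 and Dnd1, abundant in germ cells, were also counted in the other cells of the libraries. There Dnd1 was lower in all 4 -KTS KO libraries than in any other library, and Utf1 was lower in 3 of the 4. Utf1 in other cells was at 24 to 43.1 CPM in the 4 WT libraries and at 26.03 to 51.2 CPM in the 4 +KTS KO libraries. In the -KTS KO it was at 6.23 and 26.2 CPM in XX and at 5.80 and 4.67 CPM in XY, and the value of 26.2 CPM belongs to XX -KTS KO replicate 2, the library in which Dppa5a was also highest in other cells (92.4 CPM). Dnd1 in other cells was at 8.20 to 16.7 CPM in the WT, at 13.8 to 16.2 CPM in the +KTS KO, and at 2.10, 7.03, 2.67 and 3.01 CPM in the -KTS KO. In germ cells neither gene passed the test in a -KTS KO comparison (log2 fold changes 0.44 and 0.26 for Utf1, -0.19 and 0.23 for Dnd1). These values in other cells were chosen after they were seen and were not tested.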
